A study of Mus musculus with 5 samples.

Results

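The 6 genes Cd79a, Cd79b, Igll1, Vpreb1, Vpreb2 and Vpreb3, here called the receptor chain genes, were taken as a named set out of 21521 protein-coding genes. Of the 7494 EBF1 sites in the deposited list, 10 were assigned to them. A site was represented by its centre and given to the protein-coding gene whose RefSeq span held it (the shortest, where several did) or else to the nearest span within 100 kb. EBF1 is a transcription factor needed for the B-cell fate. The samples were pro-B cells, an early B-lymphocyte stage, made from mouse Ebf1-/- fetal liver cells by transduction of EBF1, so all groups share the loss of the endogenous gene. The 5 groups had 1 library each. Of these, EBF1 ChIP was done in cells with wild-type EBF1 and in cells with the form YmA, and BRG1 ChIP in cells with YmA. Each antibody also had an input, and both inputs are labelled wild-type EBF1. The site list is that of the EBF1 ChIP in cells with wild-type EBF1. The other 4 libraries were not analysed here, and a dC form named in the design was not analysed here either. A list of positions holds no expression, so the label pro-B could not be checked against marker genes.

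The pre-B-cell receptor lets a precursor B cell test a newly rearranged heavy chain before any light chain exists. Igll1 (lambda 5) and a VpreB protein, encoded by Vpreb1 or its close copy Vpreb2, form the surrogate light chain that takes the place of the missing partner. Cd79a (Ig-alpha, also called mb-1) and Cd79b (Ig-beta) are the membrane chains that carry the signal into the cell, here and later in the mature B-cell receptor. Vpreb3 encodes a relative of the VpreB proteins made in B-cell precursors. The Cd79a promoter is where EBF was first recognised as a DNA-binding activity, and the surrogate light chain genes are known targets of EBF1.

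Each of the 6 receptor chain genes had at least 1 EBF1 site, against 19.6% of all protein-coding genes. The list carries 3 class labels given by the authors, CTD-ind, YmA-ind and YmA-dep. No source used here tells how the labels were made, and they serve only as names. Each of the 6 genes had a CTD-ind site centred within 1 kb of an end of its span, against 3.31% of all protein-coding genes (5.08% for a site of any class). In 5 of the 6 that centre lay within 200 bp of the end, and Vpreb2 was the exception (1.88% of all genes had a site of any class that close). The Vpreb2 centre is inside the gene, where a span of 1830 bp puts every point within 1 kb of an end. The genes were chosen with earlier results of these data known, so these counts describe the set and are not a test of it. Vpreb1 and Vpreb2 are counted separately, although occupancy of these near copies cannot be told apart over a stretch their sites share.

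The promoter windows of Cd79a, Igll1 and Vpreb1 are shown first, because most of their letters lie under a CTD-ind site. The Vpreb2 window holds 125 bases of its CTD-ind site, with no match to the forms marked here. Those bases are shown further below. RefSeq windows on GRCm38.p6 run from 250 bases before a listed gene start to the end of the first 50 bases of the transcript, and were matched for 5 of the 6 genes (all but Cd79b). Capitals mark matches to the EBF forms CCCNNGGG and CNCNNGGGA, and to a variant with any 3 bases between TCCC and GGGA. This variant was not a planned EBF form and was chosen after the letters had been seen. The capitals at Vpreb1 are of this variant only. The windows lie at chr7:24897247-24897546 (plus strand) for Cd79a, chr16:16863936-16864235 (minus strand) for Igll1 and chr16:16869206-16869505 (minus strand) for Vpreb1.
Cd79a: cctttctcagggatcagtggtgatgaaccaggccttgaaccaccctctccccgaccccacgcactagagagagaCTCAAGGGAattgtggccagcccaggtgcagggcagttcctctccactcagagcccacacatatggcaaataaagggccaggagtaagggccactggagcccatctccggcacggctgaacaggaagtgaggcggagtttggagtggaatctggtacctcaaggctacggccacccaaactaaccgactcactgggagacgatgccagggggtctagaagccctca
Igll1: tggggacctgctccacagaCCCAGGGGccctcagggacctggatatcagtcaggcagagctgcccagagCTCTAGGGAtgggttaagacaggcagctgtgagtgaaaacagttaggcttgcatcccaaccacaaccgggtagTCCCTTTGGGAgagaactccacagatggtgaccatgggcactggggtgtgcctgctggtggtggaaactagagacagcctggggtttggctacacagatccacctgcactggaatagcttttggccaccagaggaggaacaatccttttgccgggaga
Vpreb1: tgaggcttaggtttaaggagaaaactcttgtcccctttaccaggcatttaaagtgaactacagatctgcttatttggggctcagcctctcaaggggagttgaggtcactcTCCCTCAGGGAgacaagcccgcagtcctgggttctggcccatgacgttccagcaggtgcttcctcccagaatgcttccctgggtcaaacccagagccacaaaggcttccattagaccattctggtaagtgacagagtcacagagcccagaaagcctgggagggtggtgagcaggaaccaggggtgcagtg
The CTD-ind sites cover 247 of the 300 bases at Cd79a, 213 at Igll1 and 279 at Vpreb1, and all capitals lie under them.

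The site of the signalling chain gene Cd79a lay just before its start. It spanned chr7:24897194-24897493 and was CTD-ind. Its centre was 153 bp upstream of the listed start, which is also the left end of the gene (24897497 to 24901858), and 4.51 kb from the right end. It ended 4 bp before the gene, so it touched no part of the gene. Within 50 kb of Cd79a there were 2 further sites, both YmA-ind and both inside other genes. The nearer was in Rps19, a ribosomal protein gene, 8.74 kb away, and the other was in Erfl, 36.0 kb away.

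Cd79b, the partner of Cd79a, had 2 sites of different class on either side of the gene (106311341 to 106314562 on chromosome 11). The CTD-ind site chr11:106314471-106314770 crossed the right end of the gene and was centred 59 bp outside it, 3.28 kb from the left end. The YmA-ind site chr11:106308237-106308536 was centred 2.95 kb outside the left end and 6.18 kb from the right end. The 2 centres were 6.23 kb apart. Another 2 YmA-ind sites flanked this pair, so that 4 sites lay inside Cd79b or within 10 kb of it, more than at any other receptor chain gene. The first, at chr11:106305473-106305772, was 5.72 kb from Cd79b but nearer to the growth hormone gene Gh. The second, at chr11:106318762-106319061, was 4.35 kb from Cd79b and inside Scn4a, a sodium channel gene of muscle.

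Igll1 and Vpreb1 adjoin on chromosome 16, point the same way on the minus strand and shared a run of 3 CTD-ind sites. The Igll1 site chr16:16864023-16864322 was centred 188 bp upstream of the start of that gene (16860671 to 16863985) and 3.50 kb from its other end. The Vpreb1 site chr16:16869227-16869526 was centred 122 bp upstream of the start of that gene (16868401 to 16869255) and 0.976 kb from its other end. It also covered the first bases of the transcript. These centres were 5.20 kb apart.

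The remaining site of the run, chr16:16865588-16865887, lay in the 4.42 kb between the genes. It was centred 1.75 kb upstream of Igll1, 5.07 kb from the far end of that gene, and 2.66 kb beyond the far end of Vpreb1. It was assigned to Igll1 as the nearer gene. It stood 1.57 kb from the first Igll1 site and 3.64 kb from the Vpreb1 site. The next site within 50 kb was also CTD-ind, 294 bp outside the phosphatase gene Ppm1f and 26.9 kb from Vpreb1. No YmA-ind or YmA-dep site lay within 50 kb of either gene.

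**Figure D1:**
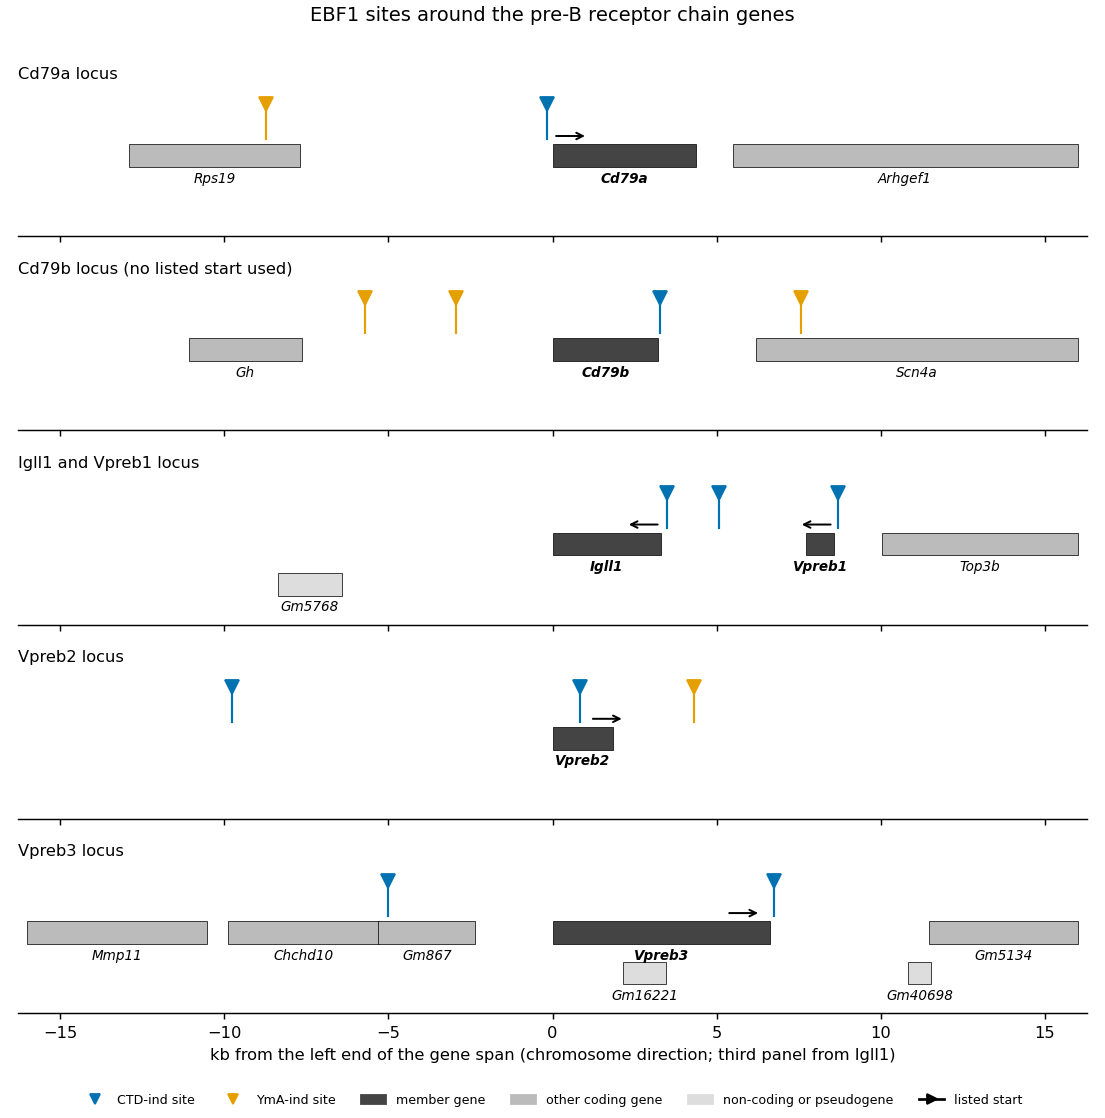
Maps of the 5 loci, with distance in kb from the left end of the gene span (of Igll1 in the third map) on the horizontal axis, genes as boxes, listed starts as arrows and site centres as coloured pins. The CTD-ind site nearest to each gene stands at the start of Cd79a, Igll1 and Vpreb1, at the right end of Cd79b, inside the span of Vpreb2 and past the far end of Vpreb3. Further CTD-ind sites lie between Igll1 and Vpreb1, 9.76 kb left of Vpreb2 and inside Gm867 near Vpreb3.

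Cd79b, Igll1 and Vpreb2 had 2 or more sites, as did 6.78% of all protein-coding genes. Vpreb2 had 3, the most of the 6 genes, a number that 2.99% of all genes matched or exceeded. The gene lies 1.11 Mb from Vpreb1 on the same chromosome, on the plus strand (17979445 to 17981274), and its listed start is 1120 bp inside that span. The CTD-ind site chr16:17980140-17980439 was centred 275 bp upstream of the listed start. That centre is inside the span, 845 bp from the left and 984 bp from the right end. A second CTD-ind site, chr16:17969537-17969836, was centred 9.76 kb outside the left end and 11.6 kb from the right. The YmA-ind site chr16:17983598-17983897 was centred 2.47 kb past the right end and 4.30 kb from the left. Neighbouring centres were 10.6 kb and 3.46 kb apart. The nearest annotated genes on either side were the lncRNA Gm41427, 35.2 kb away, and Dgcr6, 71.6 kb away.

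The start sites of Vpreb1 and Vpreb2 were compared base by base, because the genes are near copies. The Vpreb2 window matched the Vpreb1 window without a gap when shifted by 144 bases, with 153 of 156 shared bases the same (98.1%). On that shared scale the centres of the 2 CTD-ind sites were 9 bp apart. The 125 bases that lie in both windows and under both sites are shown next, on GRCm38.p6, with the differing bases in capitals. They are chr16:16869237-16869361 (minus strand) and chr16:17980315-17980439 (plus strand).
Vpreb1: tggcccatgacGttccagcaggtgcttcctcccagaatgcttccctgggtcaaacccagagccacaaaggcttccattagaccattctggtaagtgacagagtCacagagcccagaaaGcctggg
Vpreb2: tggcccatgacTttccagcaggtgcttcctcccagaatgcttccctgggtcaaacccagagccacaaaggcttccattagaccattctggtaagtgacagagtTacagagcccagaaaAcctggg
The stretches differ at 3 bases, written as the Vpreb1 base, the position counted from 1 at the 5′ end of the stretch, and the Vpreb2 base, namely G12T, C104T and G119A. The sources do not tell how reads that match both copies were placed, so occupancy of the 2 copies cannot be told apart over this stretch. Downstream of the starts each locus also held a further site. The YmA-ind site of Vpreb2 was 3.18 kb downstream of its listed start. The intergenic CTD-ind site was 3.52 kb downstream of the Vpreb1 start. The listed starts are 144 bases out of register on the shared scale. From the centres of the start sites the distances were 3.46 kb at Vpreb2 and 3.64 kb at Vpreb1. The class names of these 2 downstream sites differ. The letters under them were not read, so whether they correspond was not tested.

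Vpreb3 differed from the other 4 genes with a listed start in the end that carried the site. Its CTD-ind site, chr10:75949614-75949913, crossed the right end of the gene (75943024 to 75949657) and was centred 107 bp outside it, 6.74 kb from the left end. The gene is on the plus strand with a listed start at 75948300, so the centre was 1.46 kb downstream of that start and past the far end of the gene. The span reaches 5276 bp upstream of the listed start, and no site lay in that stretch. Another CTD-ind site, 5.01 kb from Vpreb3, was inside the neighbouring gene Gm867. Beyond 30 kb, 2 YmA-ind sites (31.9 and 41.1 kb away) were inside Gm5134.

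Measured from listed starts rather than span ends, 4 of the 5 receptor chain genes with a listed start had a CTD-ind site within 500 bp of it. Over the 17274 protein-coding genes with a listed start this held for 3.17%, and 4.22% had a site of any class there. The 4 centres were all upstream, at 122 bp (Vpreb1), 153 bp (Cd79a), 188 bp (Igll1) and 275 bp (Vpreb2). The Vpreb1 and Vpreb2 sites are counted separately here, although their occupancy cannot be told apart over the stretch the copies share. Over the list, 558 CTD-ind sites were centred within 500 bp of a listed start and 51.8% of these were upstream. These 558 were 22.4% (95% exact Clopper-Pearson interval 20.8 to 24.1%) of the 2487 CTD-ind sites on the 19 chromosomes with listed starts. The share was 5.73% (5.03 to 6.50%) for YmA-ind and 2.31% (1.42 to 3.55%) for YmA-dep sites. Intervals cover counting error only.

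**Figure D2:**
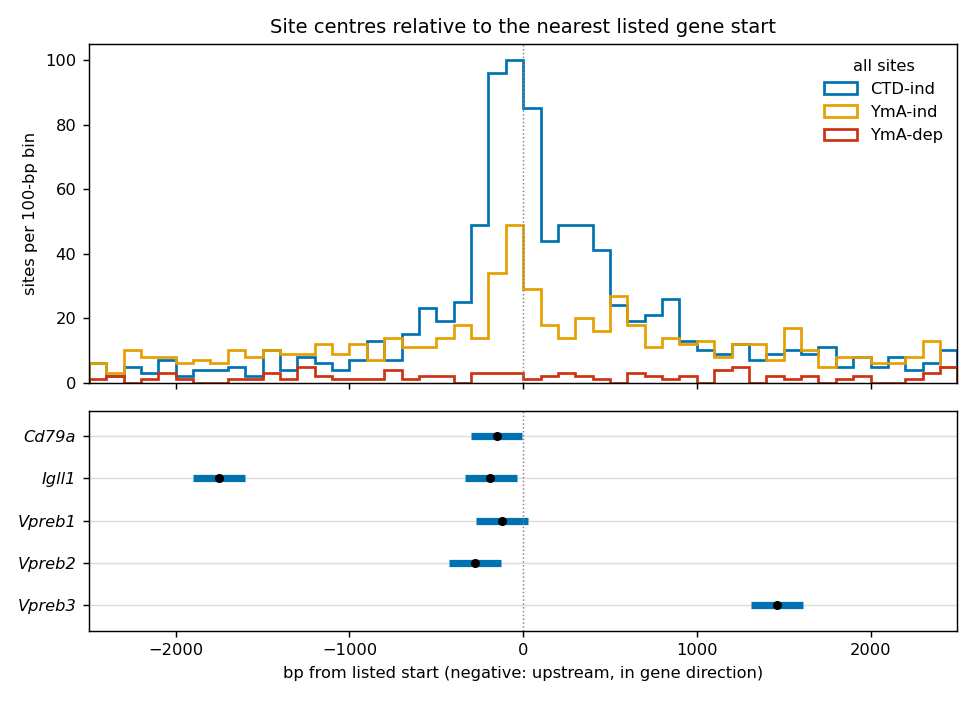
Upper plot, number of sites of each class per 100-bp bin of distance from the nearest listed start, in bp and in gene direction. Lower plot, the sites of 5 receptor chain genes within 2.5 kb of their own listed start, as bars with the centre as a dot. The nearest sites at Cd79a, Igll1, Vpreb1 and Vpreb2 are centred 122 to 275 bp upstream, the second Igll1 site 1.75 kb upstream and the Vpreb3 site 1.46 kb downstream.

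The 5 promoter windows were searched for the EBF motif, an inverted repeat, on both strands. The windows hold 125 bases of the Vpreb2 start site and none of the Vpreb3 site, the second Igll1 site or the outer Vpreb2 sites. The letters under those sites and under the Cd79b sites were not analysed here. The full spelling, TCCC and GGGA with any 2 bases between, was in 0 of the 5 windows and in 0.904% of all 32851 windows of the same length. The shorter CCCNNGGG was in 1, at Igll1, with the letters CCCAGGGG from 231 to 224 bases upstream (13.7% of all windows). The relaxed spelling CNCNNGGGA, which can overlap the shorter one, was in 3 windows (21.5% of all windows). At Cd79a it read CTCAAGGGA, from 176 to 168 bases upstream, with its middle 19 bp from the site centre. At Igll1 it read CTCTAGGGA, from 181 to 173 bases upstream, with its middle 11 bp from the site centre. The match at Vpreb2 was on the opposite strand, 48 to 40 bases upstream, and lay outside the site.

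Igll1 and Vpreb1 shared the spelling with 3 bases between TCCC and GGGA. It was not a planned EBF form and was chosen after the letters were seen. It was in 0.831% of all windows and in 22 (6.96%) of the 316 windows that held a CTD-ind centre. Both of these windows are among the 22, so the spelling was not chosen independently of that share. At Igll1 it read TCCCTTTGGGA, 108 to 98 bases upstream and 85 bp from the site centre. At Vpreb1 it read TCCCTCAGGGA, 140 to 130 bases upstream and 13 bp from the site centre. Neither the full, the shorter nor the relaxed spelling matched in the Vpreb1 window. A match describes the letters and not binding.

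The relaxed spelling was common in promoter windows that held the centre of a site. It was in 274 of 316 windows with a CTD-ind centre (86.7%), and in 69 of 114 windows with a YmA-ind centre (60.5%). With a YmA-dep centre there were only 8 windows, of which 7 (87.5%) held it. The full spelling was in 62 (19.6%) of the 316 and in 10 (8.77%) of the 114, and in 0 of the 8. Windows with a CTD-ind centre were also richer in G and C, with a median of 63.8% against 52.7% over all windows, and the part of base composition in these shares was not tested. Several windows can belong to one gene, so they are not independent.

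The 5 receptor chain windows held fewer CpG dinucleotides than the median window with a CTD-ind centre. The windows of Vpreb2 and Vpreb3 hold no such centre themselves. The median window with a CTD-ind centre held 23, and the median of all windows was 7. The count was 8 at Cd79a, 2 at Igll1, 2 at Vpreb1, 1 at Vpreb2 and 3 at Vpreb3. Their G and C content was 58.3%, 57.0%, 54.0%, 58.7% and 51.0% in the same order.

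Motifs of other factors were described in the same windows. The E-box CANNTG, read by E proteins, was in all 5, but also in 72.3% of all windows. Under the sites it occurred at Cd79a (CAGGTG, 154 to 149 bases upstream, and CATATG, 117 to 112), Igll1 (CAGCTG, 158 to 153, and CAGATG, 87 to 82), Vpreb1 (CAGGTG, 88 to 83) and Vpreb2 (CAGGTG, 232 to 227). The CAGGTG of Cd79a sat 1.5 bp from the site centre. The RUNX letters TGTGGT were in the windows of Igll1, on the opposite strand, 123 to 118 bases upstream, and of Vpreb3 (16.8% of all windows). The single ETS spelling searched, CCGGAA, was in none of the 5 (14.9% of all windows). Other ETS spellings were not searched, so its absence does not show that these windows lack an ETS motif.

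**Figure D3:**
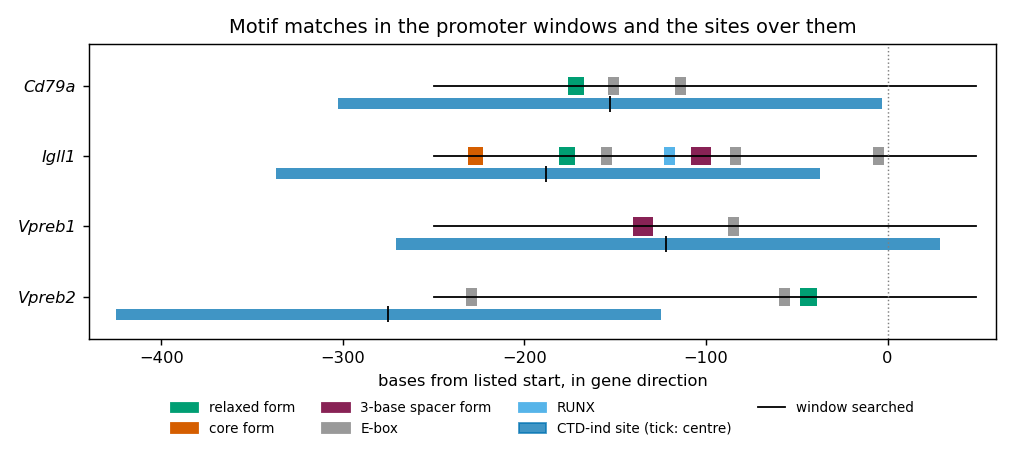
Promoter windows of 4 receptor chain genes on a scale of bases from the listed start, in gene direction, with motif matches as coloured boxes and the CTD-ind site under each window as a bar with its centre marked. The relaxed EBF spelling lies near the site centre at Cd79a and Igll1, and the Vpreb2 site reaches beyond the window searched.

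The class make-up of the 10 sites was 8 CTD-ind, 2 YmA-ind and 0 YmA-dep. CTD-ind thus made up 80.0% (95% exact interval 44.4 to 97.5%), against 34.0% of all sites. The start sites of Vpreb1 and Vpreb2, whose occupancy cannot be told apart over their shared stretch, are counted as separate sites in this share. For the YmA-dep count of 0 of 10 the same interval reached 30.8%, and YmA-dep sites were 11.9% of the list. The 10 sites are not independent draws, and their genes were chosen with earlier results known. Both intervals therefore cover counting error only and are not a test. CTD-ind sites were 67.6% of all assigned sites within 200 bp of a gene end (275 of 407). The 2 YmA-ind sites, at Cd79b and Vpreb2, were the ones centred 2.95 and 2.47 kb outside their genes. The other sites centred more than 1 kb from a gene end, 1.75 kb from Igll1 and 9.76 kb from Vpreb2, were CTD-ind.

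Spacings between neighbouring sites of the same gene, or of Igll1 and Vpreb1, ran from 1.57 to 10.6 kb. Sites assigned to the same short gene, or to adjoining genes, are close by that choice, so these spacings were not compared with those of other sites. The genes themselves are short, from 0.855 kb (Vpreb1) to 6.63 kb (Vpreb3), against a median span of 17.4 kb. Among protein-coding genes no longer than Vpreb3, 8.10% had a site and 2.00% had a CTD-ind site within 1 kb of an end.

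Genes that act next to or below the receptor carried sites too. From a list of 20 pathway genes, the heavy chain constant gene Ighm is no protein-coding entry in the gene table and could be assigned no site. Of the other 19, 14 had a site (19.6% of all protein-coding genes). A CTD-ind site was at 10, a YmA-ind at 9 (12.2% of all protein-coding genes) and a YmA-dep site at 5 (3.26%). For CTD-ind sites the share over all protein-coding genes was 9.32%. A CTD-ind site within 1 kb of an end, which 3.31% of all protein-coding genes had, was found at 4 of the 19. These were the kinase gene Fyn (2 bp inside), the exchange factor gene Vav1 (31 bp inside), the adaptor gene Pik3ap1 (315 bp outside) and the phospholipase gene Plcg2 (332 bp inside). The phosphatase gene Ptpn6 had a YmA-ind site 14 bp outside and the PI3-kinase gene Pik3cd one at 247 bp, while the nearest site of the kinase gene Lyn, 799 bp inside, was YmA-dep. Syk, Grb2, Fcgr2b, Fcrl1 and Cd38 had none.

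By type of gene, 9 of 11 kinase and adaptor genes had a site, and 5 of 9 coreceptor and Fc receptor genes. Over all protein-coding genes the share was 19.6%. A CTD-ind site within 1 kb of an end was present at 4 of the 11 and at 1 of the 9, the TNF-receptor family gene Cd40, 340 bp outside. Of all protein-coding genes, 3.31% had one. YmA-dep sites, absent from the receptor chain genes, were at 4 of the 11 (Blnk, Lyn, Fyn and Bank1) and at 1 of the 9 (Cd72). They were at 3.26% of all protein-coding genes. The kinase and adaptor genes span 41.3 kb (Btk) to 273 kb (Bank1), far longer than the receptor chain genes. No share over genes of like length was taken for these lists. The differences between these lists were not tested.

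**Figure D4:**
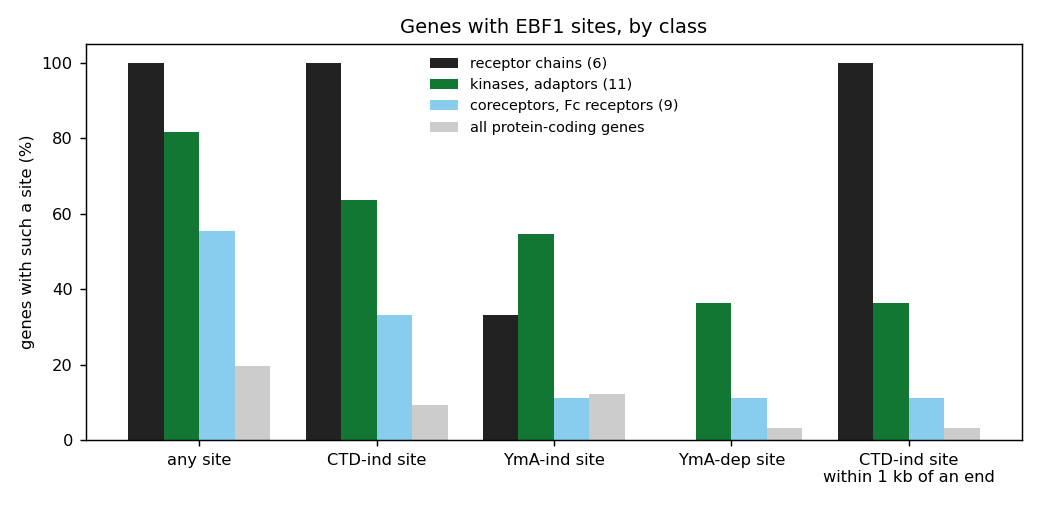
Share of genes, in percent, with a site of each kind among the 6 receptor chain genes, 11 kinase and adaptor genes, 9 coreceptor and Fc receptor genes and all protein-coding genes. The receptor chain genes stand at 100% for CTD-ind sites within 1 kb of an end, against 36.4, 11.1 and 3.31% for the others.

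Other genes with the same number of sites per class were numerous for the simplest pattern. A single CTD-ind site, as at Cd79a, Vpreb1 and Vpreb3, was shared by 1076 other genes, of which 47, 52 and 55 had it within 50 bp of the distance seen at these 3 genes. In the fixed lists the nearest in distance were Cd40, Cd22 (1266 bp inside) and the kinase gene Btk (16896 bp inside). The Cd79b pattern of 1 CTD-ind and 1 YmA-ind site was shared by 268 genes, 14 of them within 50 bp, and in the lists by Pik3ap1. The 2 CTD-ind sites of Igll1 were shared by 101 genes and 1 of them was within 50 bp. The Vpreb2 pattern was shared by 55 genes, 0 of them within 50 bp, and in the lists by Vav1. Likeness here means equal site counts over this 1 library and the distance of the nearest site to a span end.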

How the data were processed

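ChIP-seq of EBF1 was done in 1 library with wild-type EBF1. The deposited file, per the file headers, gives site positions and a class and no other value: positions count bp on the chromosome, with no score, so neither depth nor site strength is known. The submitters' processing notes name the build GRCm38 (mm10) and the tools deepTools, Bowtie2 and SAMtools. The sources do not say how the authors called the sites or sorted them into classes. All 7494 sites are 300 bp wide, on 20 chromosomes.

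Genes came from RefSeq GRCm38.p6. From it 345 genes of other scaffolds were left out, which kept 49209. Starts, strands and windows came from a RefSeq promoter table of that build (32851 windows). Analysis used Python 3.11.15, pandas 2.3.3 and SciPy 1.17.1. The assignment was tested on simulated sites placed outside the left end of a gene, with no other gene as near. Sites inside genes, past the right end or in overlapping spans were not simulated. With 1 library there was no test between groups, and no p-value is given. Members, lists and motifs were chosen with earlier results of these data known. Named genes were the members, list genes with a site, and neighbours; list genes without a site and genes holding a nearby site were named after their values were seen. No protein sequences were compared here.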

Additional observations from a re-analysis of the deposited data

How the results depend on the processing

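The total of 10 sites stayed at 10 with a limit of 20 kb, with no limit, with all annotated genes and with site intervals in place of centres, and was 17 when every site inside a gene or within 10 kb counted, by construction with sites shared between genes (14 different sites, of which 9 or 64.3% were CTD-ind). By nearest listed start it was 9 for the 5 genes with one, with 2 in place of 1 at Vpreb3. Of 35 counts per single gene, 29 were equal. From the nearest edge of a site, the median distance to a gene end was 2 bp in place of 137.5 bp. A site within 500 bp of an end was found at 5 genes, and within 2.5 kb at 6. The share over all protein-coding genes was taken at 1 kb (5.08%) but not at these distances, so these counts have no background. The number of windows with the EBF motif went from 0 to 1 with the shorter and to 3 with the relaxed spelling. The 3-base spacer variant, not a planned EBF form and added after the data were seen, was in 2 windows. The median of the 6 spacings, which include that from the first Igll1 site to Vpreb1, was 4421.5 bp between centres and 4121.5 bp between facing edges. No paired analysis was possible because each group holds 1 library. The protein comparison was not run. Since depth is unknown, lack of a site does not show lack of binding.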
